A study of Homo sapiens with 6 samples.

Results

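Expression of 10 genes of eicosanoid metabolism is described here in HDQ-P1 cells exposed to Y-320. They are the phospholipase A2 genes PLA2G4A, PLA2G4B, PLA2G4C and PLA2G6, the cyclooxygenase genes PTGS1 and PTGS2, the prostaglandin E synthase genes PTGES and PTGES2, the lipoxygenase gene ALOX5 and the prostaglandin dehydrogenase gene HPGD. The 10 genes were selected by name, from what their enzymes do, when earlier results of this same comparison were already known, and all 10 were found among the 40295 gene identifiers of the expression table. Their differences between the groups are therefore a description and were not tested as a set. HDQ-P1 is an established human breast carcinoma line, and Y-320 is a small molecule that the study examined as an enhancer of readthrough of premature termination codons. RNA-seq libraries came from 3 untreated samples and from 3 given 1 µM Y-320 over 48 h, in the same medium with 10% fetal bovine serum. No source used here says that the untreated cells were given the solvent, so the compound and its solvent cannot be told apart. All libraries are from this single line, and nothing says whether the replicates are separate cultures, so any p-value measures only the spread between these samples.

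Eicosanoids are signaling lipids made from arachidonic acid, a polyunsaturated fatty acid held in membrane phospholipids. Phospholipases A2 release it, and the cyclooxygenases encoded by PTGS1 (constitutive in many tissues) and PTGS2 (inducible by cytokines and growth factors) convert it to prostaglandin H2. Prostaglandin E synthases turn that intermediate into prostaglandin E2, which acts through G protein-coupled EP receptors until 15-hydroxyprostaglandin dehydrogenase, encoded by HPGD, oxidizes and inactivates it. A separate branch starts with 5-lipoxygenase, encoded by ALOX5, and leads to leukotrienes. In epithelial cancers PTGS2 is known as a gene that is often raised, and HPGD as one that is often lost.

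PTGS2 and PLA2G4A are neighbors on chromosome 1, transcribed away from each other, with 148027 bp and 0 protein-coding genes between them. PTGS2 spans chr1:186671791-186680922 on the minus strand and PLA2G4A spans chr1:186828949-186988981 on the plus strand (hg38, GENCODE 44). Because these neighbors differed between the groups in opposite directions, the 250 bases before the RefSeq start of each (GRCh38.p14, 5′ to 3′ in the gene's own direction) are shown for comparison. The PTGS2 window is chr1:186680424-186680673 on the minus strand, lies in an intron of a longer PTGS2 transcript and overlaps the antisense lncRNA gene PACERR, and the PLA2G4A window is chr1:186828699-186828948 on the plus strand. Capitals mark matches to the motifs named in the next paragraph.
PTGS2: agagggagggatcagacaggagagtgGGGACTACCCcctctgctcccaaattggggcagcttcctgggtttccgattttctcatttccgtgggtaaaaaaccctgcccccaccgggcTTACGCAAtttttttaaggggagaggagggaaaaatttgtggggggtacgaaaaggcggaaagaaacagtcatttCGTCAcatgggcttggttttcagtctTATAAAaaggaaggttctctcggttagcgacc
PLA2G4A: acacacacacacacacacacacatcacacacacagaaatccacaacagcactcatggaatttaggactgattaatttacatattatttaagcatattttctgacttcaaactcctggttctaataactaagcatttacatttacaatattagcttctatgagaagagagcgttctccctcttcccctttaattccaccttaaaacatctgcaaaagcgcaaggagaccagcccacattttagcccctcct

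The windows were searched on both strands for 8 motifs. The TATA box was taken as TATAAA and the binding motif of C/EBP factors as TTNNGCAA. For the cAMP response element (CRE) the core TGACG was used, and for AP-1 the letters TGANTCA. The E-box was searched as CACGTG. The core of the HIF motif, ACGTG, lies inside every such E-box. The GC box was GGGCGG, and the kappa-B motif of NF-kB factors was GGGANTNNCC. From its 5′ end, the PTGS2 window holds a kappa-B match 224 to 215 bases before the start, a C/EBP match 133 to 126 bases before it, a CRE core on the opposite strand 58 to 54 bases before it and a TATA box 32 to 27 bases before it. Of 35116 promoter windows of this length, 4.46% hold the kappa-B motif, 9.05% the C/EBP motif, 21.2% the CRE core and 10.7% the TATA box. The PLA2G4A window has 0 matches to the 8 motifs, which says only that these letters are not in these bases. For HPGD the table gives 2 windows. The one nearer the gene's coding part has a GC box, a motif in 42.6% of windows, and the other has a CRE core. PTGS1, PTGES, PTGES2 and PLA2G6 also hold GC boxes, PTGS1 a TATA box and a HIF core, and PLA2G6 and PTGES2 an E-box. PLA2G4B has 0 matches. PTGS1, which was also higher with Y-320, has 0 matches to the kappa-B, C/EBP and CRE letters. The part of any of these matches in the levels was not tested. RefSeq promoters were matched for 8 of the 10 genes, PLA2G4C and ALOX5 being the others.

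The mRNA of PTGS2 is also known for AU-rich elements in its 3′ UTR, short repeats of the pentamer ATTTA that RNA-binding proteins recognize. The densest 30 bases of that UTR are shown because the proteins that bind such elements were measured as well, with each pentamer in capitals.
PTGS2 3′ UTR: agaagtctaatgatcatATTTATTTATTTA
This stretch holds 3 overlapping pentamers. The whole PTGS2 3′ UTR holds 22 in 2565 nt, or 8.58 per kb, and that of PLA2G4A has 4 in 476 nt, or 8.40 per kb. HPGD has 5, PTGS1 3, ALOX5 2 and PTGES 1, while PLA2G4B, PLA2G4C, PLA2G6 and PTGES2 have 0. Across 18531 genes the median was 2 per 3′ UTR and 1.63 per kb, and 4.87 per kb marked the upper 10%. PTGS2 and PLA2G4A thus share a density above that mark, but not the repeats. In the 476 nt of PLA2G4A at most 1 pentamer lies in any 30 bases, beside 3 in PTGS2. The levels of PTGS2 and PLA2G4A differed in direction between the groups.

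Library totals ranged from 21045401 to 22740535 estimated counts. Counts per library total (CPM) put 3 counts, the most that a count of 0 allows, at 0.132 to 0.143 CPM in these libraries, by counting error alone. The levels below are CPM scaled between libraries by the TMM method (normalized CPM), and log2 fold changes, Y-320 over untreated, come from edgeR's quasi-likelihood fit to 16580 genes. A gene is said to have risen or fallen where its Benjamini-Hochberg adjusted p was under 0.05. The 8 epithelial markers were all tested, with a summed level of 11310 to 11830 normalized CPM in untreated libraries and 6902 to 6974 with Y-320, 7 lower and 1 higher. Of 7 leukocyte markers, 3 were at or under 3 counts in every library, MS4A1 at 0 among them, and the sum was 1.43 to 2.32 untreated and 2.68 to 2.83 with Y-320, with 1 higher. The 6 fibroblast markers summed to 249.7 to 285.1 untreated and 126.9 to 147.2 with Y-320, with 4 lower, and the 4 endothelial markers to 17.8 to 19.3 and 14.3 to 18.4, with 1 higher, 1 lower and 0 at 0. All libraries came from a single cultured line, so these markers describe its RNA and do not count cell types. In bulk libraries, fewer cells that express a gene and less of its RNA per cell cannot be told apart. The part of these markers in the results below was not tested.

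All 10 genes passed the filter on low counts. With Y-320, 3 of them were higher (PLA2G4C, PTGS1 and PTGS2), 4 were lower (PLA2G4A, PLA2G4B, PTGES and HPGD) and 3 were not past the threshold (PLA2G6, PTGES2 and ALOX5). Among all genes tested, 51.5% passed in either direction, 26.2% higher and 25.4% lower. The treated and untreated libraries did not overlap for 7 of the 10 genes, against 59.2% of all genes tested. Nothing is read from these counts, since the choice of genes used the same comparison. The median log2 fold change of the 10 was -0.14, beside 0.00 over all genes, and the median of its size was 0.59, beside 0.21 over all genes.

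**Figure D1:**
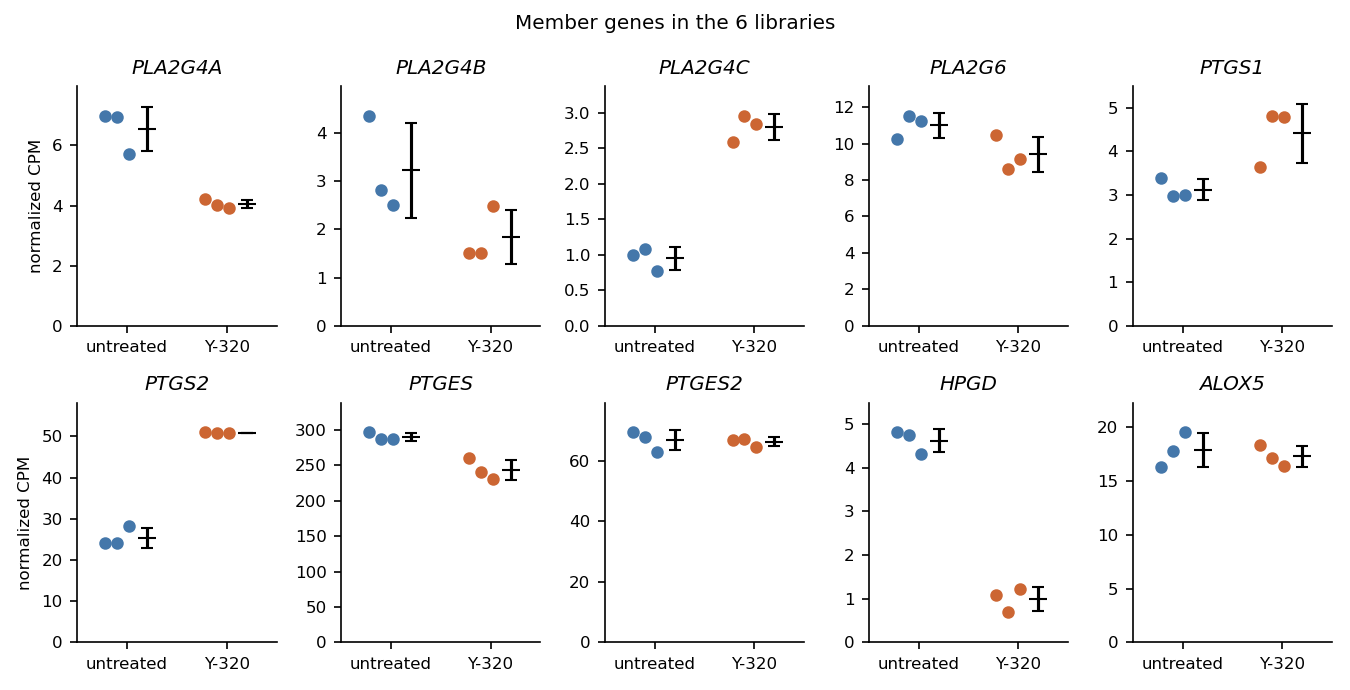
Normalized CPM (vertical axes, each from 0 and with its own scale) of the 10 genes in the 3 untreated libraries (blue) and the 3 Y-320 libraries (orange), replicates 1 to 3 from left to right, with the mean and SD of each group in black. The groups are separate for 7 genes and overlap for PLA2G6, PTGES2 and ALOX5.

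Among the phospholipase A2 genes, PLA2G4C was higher with Y-320 while PLA2G4A and PLA2G4B were lower. PLA2G4A (chromosome 1) encodes cPLA2α, the calcium-dependent cytosolic enzyme with a preference for arachidonic acid. Its normalized CPM was 6.98, 6.95 and 5.71 in untreated replicates 1, 2 and 3 and 4.20, 4.03 and 3.93 with Y-320, from 126 to 154 counts and 87 to 96 counts. The lowest untreated library lay above the highest treated one. The log2 fold change was -0.69, with a standard error (SE) of 0.117, or 1.61-fold lower, and it stayed between -0.78 and -0.64 with each library left out. Its 31-base words are found in no other gene (0%).

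PLA2G4C, on chr19:48047843-48110817 (minus strand), encodes cPLA2γ, which lacks the calcium-binding C2 domain of cPLA2α and is lipid-anchored to membranes. It was measured at 1.00, 1.08 and 0.770 normalized CPM untreated and at 2.59, 2.95 and 2.84 with Y-320. The counts behind these levels were 17.0 to 22.6 and 59.2 to 64.5. Every treated library lay above every untreated one, and the log2 fold change was 1.54 (SE 0.197), a 2.90-fold higher level. It was 1.40 to 1.65 with each library left out. Other genes hold 8.45% of its 31-base words, among them the antisense gene PLA2G4C-AS1 with 3.56%. PLA2G4C-AS1 was not among the gene identifiers of the expression table. Whether reads of the strands were kept apart is not known, since strandedness is not given.

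PLA2G4B encodes cPLA2β and lies on chr15:41837775-41848147 (plus strand) inside a longer readthrough gene, JMJD7-PLA2G4B, which joins it to the upstream gene JMJD7. Its levels were 4.34, 2.82 and 2.50 normalized CPM untreated and 1.50, 1.52 and 2.48 with Y-320. The groups only just failed to overlap, since untreated replicate 3 and Y-320 replicate 3 were nearly equal. The log2 fold change was -0.82 (SE 0.267). It no longer passed the threshold without untreated replicate 1 (-0.54), without Y-320 replicate 1 (-0.69) or without Y-320 replicate 2 (-0.70). As 72.6% of its 31-base words occur in JMJD7-PLA2G4B, the division of reads between these genes is uncertain. JMJD7-PLA2G4B itself had 7.05, 9.46 and 8.79 normalized CPM untreated and 8.50, 7.77 and 7.61 in the treated libraries. Its log2 fold change was -0.08 (SE 0.113, 95% interval -0.33 to 0.17). With the counts of both genes summed, an alternative added after the data were seen, the log2 fold change was -0.25 (SE 0.0737).

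PLA2G6 encodes the calcium-independent iPLA2β, which takes part in membrane remodeling, and lies on chr22:38111495-38214778 (minus strand). Its normalized CPM was 10.2, 11.5 and 11.3 untreated and 10.5, 8.60 and 9.17 with Y-320. The groups overlapped, with Y-320 replicate 1 above untreated replicate 1. The log2 fold change of -0.22 (SE 0.0909, 95% interval -0.42 to -0.02) was not past the adjusted threshold, but it passed with upper-quartile scaling (-0.25), without untreated replicate 1 (-0.27) and without Y-320 replicate 1 (-0.31). PLA2G6 overlaps MAFF, a small MAF transcription factor gene on the opposite strand, and a lncRNA gene also on that strand. Other genes hold 18.6% of its 31-base words, and the lncRNA gene alone holds 14.8%. That lncRNA gene was not among the gene identifiers of the expression table. MAFF rose from 9.70, 11.6 and 11.4 normalized CPM to 20.0, 21.3 and 21.5, opposite to the direction of PLA2G6.

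Both cyclooxygenase genes were higher with Y-320, PTGS2 at 2.00-fold and PTGS1 at 1.41-fold. PTGS2 had 24.0, 24.1 and 28.2 normalized CPM in untreated replicates 1, 2 and 3, from 530, 502 and 622 counts. With Y-320 it had 50.95, 50.85 and 50.81, from 1164, 1111 and 1126 counts. The treated libraries nearly coincided, and all lay far above the untreated ones. The log2 fold change was 1.00 (SE 0.0566), a 2.00-fold higher level, and it was 0.96 to 1.08 when any library was left out and 0.97 to 1.01 under the other filters, scalings and tests. PACERR, the antisense gene at the PTGS2 start, holds 3.41% of its 31-base words and was not among the gene identifiers of the expression table.

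PTGS1 (chr9:122370530-122395703, plus strand) had 3.40, 2.97 and 2.99 normalized CPM untreated and 3.63, 4.81 and 4.78 with Y-320, from 62 to 75 counts and 83 to 106 counts. The groups did not overlap, but Y-320 replicate 1 was closer to the untreated libraries than to the other treated ones. The difference was 0.50 on the log2 scale (SE 0.149), a 1.41-fold higher level. It no longer passed with DESeq2 (0.50), without untreated replicate 2 (0.46) or 3 (0.46), or without Y-320 replicate 2 (0.43) or 3 (0.43). Without Y-320 replicate 1 it was 0.62.

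PTGES fell a little and PTGES2 showed a difference near 0. PTGES (chr9:129738331-129753042, minus strand) encodes mPGES-1, the membrane enzyme usually coupled to the product of PTGS2. It had 297, 287 and 288 normalized CPM untreated and 260, 240 and 231 with Y-320. Each treated library lay below each untreated one, although the log2 fold change was only -0.25 (SE 0.0393), or 1.19-fold lower. With each library left out it was -0.30 to -0.21.

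PTGES2 (chr9:128120693-128128462, minus strand) encodes mPGES-2, a second membrane-associated synthase with no close likeness to mPGES-1. Its levels were 69.4, 67.9 and 63.1 normalized CPM untreated and 67.1, 67.4 and 64.7 with Y-320. The groups overlapped throughout, and the log2 fold change was -0.01 with a 95% interval from -0.10 to 0.08. A change of more than 0.10 in either direction on the log2 scale lies outside that interval. The direction of PTGES2 turned with small changes of the fit, for example to 0.02 without untreated replicate 1.

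HPGD had the largest log2 fold change in size of the 10 genes. It lies on chr4:174490175-174523154 (minus strand), and its enzyme starts the breakdown of prostaglandin E2. HPGD was counted 106, 99 and 95 times in untreated replicates 1, 2 and 3 and 25, 15 and 27 times with Y-320. These counts correspond to 4.80, 4.75 and 4.30 normalized CPM and to 1.09, 0.687 and 1.22. The untreated libraries were tightly grouped and the treated ones were all far below them, with Y-320 replicate 2 the lowest. The log2 fold change was -2.20 (SE 0.202), or 4.59-fold lower, and lay between -2.36 and -1.99 when any library was left out. Of its 31-base words, 5.01% occur in a lncRNA gene on the opposite strand, which was not among the gene identifiers of the expression table.

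ALOX5 (chr10:45374176-45446119, plus strand) was not past the threshold. Its normalized CPM was 16.3, 17.8 and 19.5 untreated and 18.4, 17.1 and 16.4 with Y-320, so the groups overlapped. The log2 fold change was -0.05 (95% interval -0.22 to 0.12), and it became 0.02 without untreated replicate 3. ALOX5AP, which encodes the protein that presents arachidonic acid to 5-lipoxygenase and is named here for that role after its values were seen, was counted 2, 0 and 2 times without and 0, 5 and 5 times with Y-320. It was too low to be tested.

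**Figure D2:**
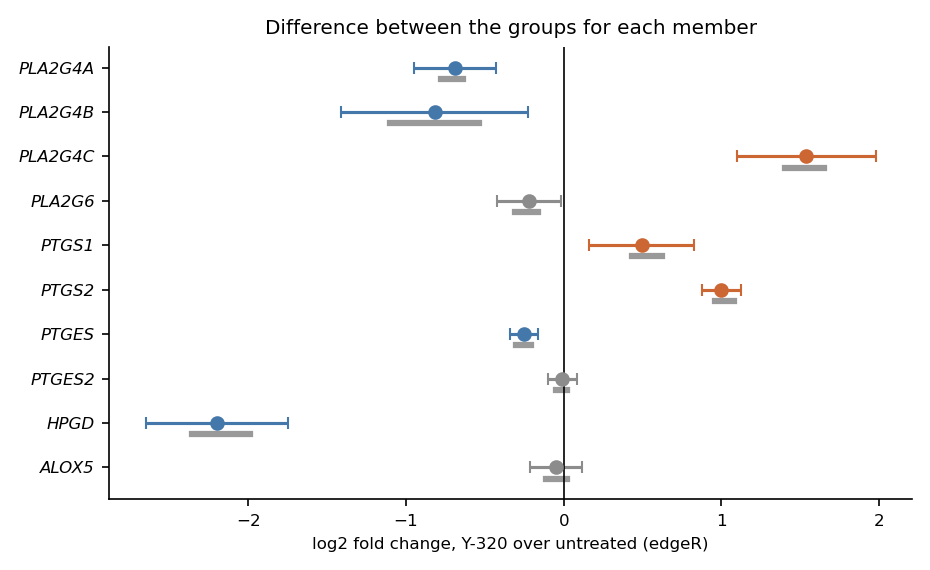
Log2 fold change, Y-320 over untreated, of each of the 10 genes (points, edgeR) with its 95% interval (thin bars), in orange where higher, blue where lower and gray where not past the threshold. The thick gray bars give the range with each library left out in turn, which for HPGD is -2.36 to -1.99 and for PTGS2 0.96 to 1.08.

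To compare levels between the genes, normalized CPM was divided by the median length of each gene's protein-coding transcripts in kb. PTGES was the most abundant of the 10 on this scale, at 165.9 ± 3.05 normalized CPM per kb untreated and 139 ± 8.38 in treated cells (mean ± SD, n = 3 each). PTGES2 followed at 42.4 ± 2.10 and 42.1 ± 0.928. The other 8 genes lay between 1.20 and 7.28 per kb in untreated cells, in the order ALOX5, PTGS2, PLA2G6, HPGD, PLA2G4A, PLA2G4C, PTGS1 and PLA2G4B. In that order the last 3 overlapped in their ranges over libraries (1.26 to 1.77 for PLA2G4C, 1.43 to 1.64 for PTGS1 and 0.928 to 1.61 for PLA2G4B). Divided by the longest transcripts these ranges did not overlap, with PLA2G4B highest and PLA2G4C lowest of the 3.

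With Y-320, PTGS2 at 11.0 ± 0.0148 per kb stood above ALOX5 at 7.03 ± 0.415, where it had been below it untreated (5.52 ± 0.519 and 7.28 ± 0.646). HPGD went from place 6 in untreated cells, at 3.01 ± 0.178 per kb, to place 10 with Y-320, at 0.651 ± 0.181, where its range over libraries (0.447 to 0.794) overlapped that of PLA2G4B (0.558 to 0.919). PLA2G4C went from 1.56 ± 0.266 per kb to 4.57 ± 0.302, but its median transcript is only 611 bp long. Divided by its longest transcript of 2496 bp, PLA2G4C was at place 10 untreated and place 7 with Y-320, so its position depends on the length used. By the longest transcripts HPGD was at place 7 and PLA2G4B at place 8 untreated. With Y-320 the range of HPGD (0.235 to 0.417) then lay below that of PLA2G4B (0.496 to 0.816). The order of the less abundant genes thus also depends on the length.

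**Figure D3:**
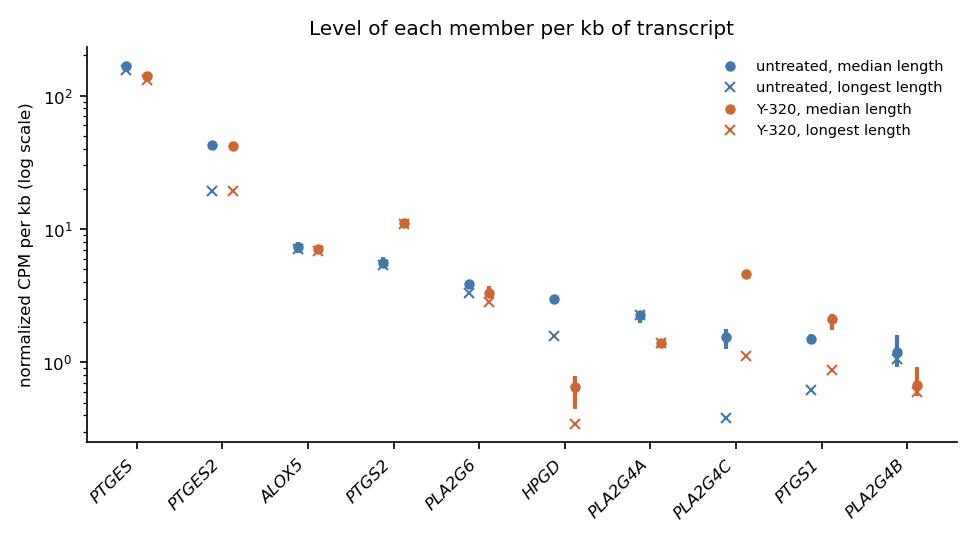
Normalized CPM per kb of transcript (log scale) of the 10 genes in untreated (blue) and Y-320 (orange) libraries, ordered by the untreated level. Points are means of 3 libraries with the range over libraries as a bar, by median transcript length, and crosses are means by the longest transcript. PTGES is highest in both groups, and the points of HPGD and PLA2G4C move furthest apart.

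Within steps of the pathway, the same levels per kb gave shares. PTGS2 made up 76.1%, 78.5% and 80.9% of the cyclooxygenase level in untreated replicates 1, 2 and 3. In the treated replicates it made up 86.3%, 82.6% and 82.7%, with no overlap. By the longest transcripts PTGS2 made up 89.6% ± 1.33 untreated and 92.5% ± 1.07 with Y-320 (mean ± SD, n = 3 each). PLA2G4C made up 17.4% ± 1.81 of the level of the 4 phospholipase genes untreated and 45.7% ± 3.28 of it after treatment (mean ± SD, n = 3 each). By the longest transcripts these shares were 5.38% ± 0.627 and 18.8% ± 1.98. The ratio of PTGS2 to HPGD, the genes for the inducible cyclooxygenase and for the inactivating dehydrogenase, was 1.67, 1.69 and 2.18 per kb without Y-320 and 15.5, 24.7 and 13.9 with it. By the longest transcripts this ratio was 3.435 ± 0.542 untreated and 33.55 ± 10.8 with Y-320. The treated ratios rest on 15 to 27 counts of HPGD. All of these shares and ratios are built from the same differences as above and add no separate evidence.

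Outside the 10 genes, 110 related genes in 9 lists were examined, 8 of enzymes, receptors and partners of the pathway and 1 of proteins that bind AU-rich elements, and 87 were tested. Of these, 15 rose (17.2%), 37 fell (42.5%) and 35 were not past the threshold, beside 26.2% and 25.4% of all genes. Their median log2 fold change was -0.15. The lists were written when earlier results of these data were known. Their shares, and the adjusted p-values given for their genes, are therefore a description. Without the AU-rich element list, 13 rose and 33 fell of 79. Of the 52 calls, 7 were lost with DESeq2 and 0 with limma-voom. LPCAT1 and ALOXE3 passed a log2 fold change of 1 in size, and both were higher.

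**Figure D4:**
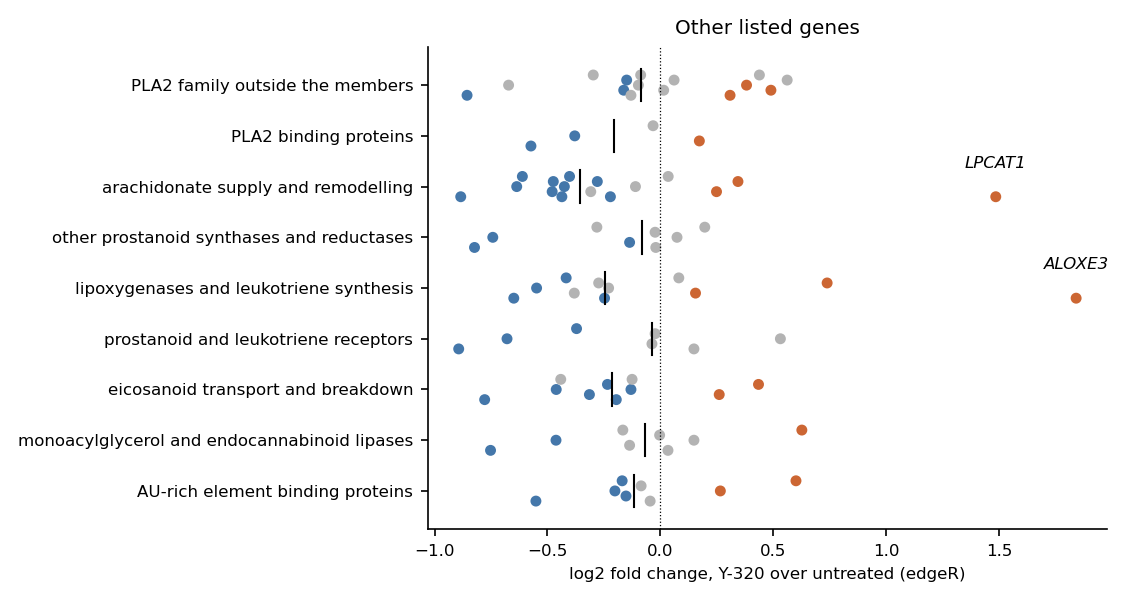
Log2 fold change, Y-320 over untreated (horizontal axis), of the 87 related genes tested, 1 point per gene in rows by list, in orange where higher, blue where lower and gray where not past the threshold in edgeR. Black lines are list medians. Among these lists the lowest median is that of arachidonate supply and remodelling at -0.36, and the named points lie to the right of 1.

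In the list of arachidonate supply and remodelling, 16 genes were tested, with a median log2 fold change of -0.36. Of these, 10 fell and 3 rose, beside 25.4% and 26.2% of all genes tested. Not all of these enzymes are particular to arachidonic acid. FADS2, the delta-6 desaturase of polyunsaturated fatty acid synthesis, fell from 155 to 169 normalized CPM in untreated libraries to 82.6 to 93.1 with Y-320 (log2 fold change -0.88, SE 0.0473). ELOVL2, an elongase of long polyunsaturated fatty acids, fell by 0.61 on the log2 scale, and MBOAT1, a lysophospholipid acyltransferase, fell by 0.64. LPCAT1, which reacylates lysophosphatidylcholine, moved the other way, from 42.2, 43.0 and 40.0 normalized CPM to 116.6, 120.8 and 113.1. This is a log2 fold change of 1.49 (SE 0.0390, adjusted p in edgeR = 1.57e-09). LPCAT1 shares 0% of its 31-base words with other genes.

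Of 22 other phospholipase A2 family genes 15 were tested. Their median was -0.09, with 3 higher and 3 lower, beside 26.2% and 25.4% of all genes tested. PNPLA8, a calcium-independent phospholipase, rose from 61.4 to 65.6 normalized CPM untreated to 83.2 to 84.0 with Y-320 (log2 fold change 0.38). PNPLA2, the adipose triglyceride lipase, rose by 0.31 and PNPLA7, a lysophospholipase, by 0.49 on the log2 scale. PNPLA3, with a log2 fold change of -0.86, had fewer than 3 normalized CPM in each library, and its groups overlapped. The calls of PNPLA3 and PNPLA7 were lost with DESeq2. Among 4 proteins that bind or activate phospholipase A2, ANXA2 and its partner S100A10 fell by 0.38 and 0.57, PLAA, the phospholipase A2-activating protein, rose by 0.17, and ANXA1 was not past the threshold (-0.03).

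Among the other prostanoid synthases and reductases, 8 were tested. Of these, 0 rose and 3 fell, beside 26.2% and 25.4% of all genes tested, with a median of -0.08. With edgeR 0 were also higher at an unadjusted p under 0.05, and DESeq2 and limma-voom gave 0 as well. PTGIS, the prostacyclin synthase, fell from 38.8, 40.0 and 39.0 normalized CPM to 23.9, 22.1 and 24.3 (log2 fold change -0.74, SE 0.0458, adjusted p in edgeR = 3.91e-07). AKR1C3, which reduces prostaglandin D2 to an F-type prostaglandin, fell by 0.82, and reads may be divided with its close relatives, which hold most of the 8.29% of its words found elsewhere. PTGES3, the cytosolic prostaglandin E synthase and HSP90 co-chaperone p23, fell by 0.14.

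Receptors were scarce. Of 15 receptor genes 7 were tested, 0 rose and 3 fell, beside 26.2% and 25.4% of all genes tested, with a median of -0.04. At an unadjusted p under 0.05 edgeR also gave 0 higher, as did DESeq2 and limma-voom at an adjusted p under 0.05. PTGER4, which encodes the EP4 receptor for prostaglandin E2, fell from 18.6, 16.5 and 17.7 normalized CPM to 15.8, 12.3 and 12.6 (log2 fold change -0.37, SE 0.0948, adjusted p in edgeR = 0.00765). PTGER2, for the EP2 receptor, had 2.40, 2.35 and 2.95 untreated and 1.62, 1.88 and 1.31 with Y-320 (log2 fold change -0.68, adjusted p in edgeR = 0.0143). This call of PTGER2 was lost with DESeq2. PTGFR, for the prostaglandin F receptor, fell by 0.89 on the log2 scale, with 3.67 to 3.81 normalized CPM untreated and 1.85 to 2.15 with Y-320.

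In the lipoxygenase and leukotriene list, 11 genes were tested, with a median of -0.25. Of these, 3 were higher and 4 lower, beside 26.2% and 25.4% of all genes tested. ALOXE3, an epidermal lipoxygenase, was counted 7, 5 and 7 times without and 24, 21 and 26 times with Y-320 (log2 fold change 1.84, SE 0.295, adjusted p in edgeR = 4.14e-04). ALOX12B, which acts together with ALOXE3 in the skin barrier, rose by 0.74, from at most 1.09 normalized CPM to at least 1.24, but it did not pass with DESeq2, and 20.5% of its words occur in another gene. ALOX15 fell by 0.65, COTL1, an actin-binding protein that also binds 5-lipoxygenase, by 0.55, and MGST2, a microsomal glutathione transferase able to make leukotriene C4, by 0.42.

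Of 10 tested genes for eicosanoid transport and breakdown, 2 rose and 6 fell, beside 26.2% and 25.4% of all genes tested. The list had a median of -0.22. ABCC1, an exporter of leukotriene C4, fell by 0.31, CYP4F12, a cytochrome P450 of fatty acid hydroxylation, by 0.46 and CYP2J2, an arachidonic acid epoxygenase, by 0.78 on the log2 scale, a call lost with DESeq2. EPHX2, the soluble epoxide hydrolase, rose from 13.1, 14.1 and 14.0 normalized CPM to 19.3, 19.2 and 17.2 (log2 fold change 0.44). Of 8 monoacylglycerol and endocannabinoid lipase genes 1 rose and 2 fell, beside the same shares of all genes, with a median of -0.07. MGLL, the monoacylglycerol lipase that frees arachidonic acid from 2-arachidonoylglycerol, rose from 58.3, 60.1 and 63.2 normalized CPM to 96.4, 94.7 and 89.3 (log2 fold change 0.63, SE 0.0411). NAPEPLD, a phospholipase D that makes N-acylethanolamines, fell by 0.75, and DAGLA, which makes 2-arachidonoylglycerol, by 0.46.

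Of 9 genes for proteins that bind AU-rich elements, 8 were tested, with a median of -0.12. Of these, 2 rose and 4 fell, beside 26.2% and 25.4% of all genes tested. ZFP36, or tristetraprolin, which speeds the decay of mRNAs with such elements, rose from 12.6, 13.3 and 13.0 normalized CPM to 19.3, 19.1 and 20.7 (log2 fold change 0.60, SE 0.0586, adjusted p in edgeR = 1.19e-05). Its relative ZFP36L1 rose by 0.27 and ZFP36L2 fell by 0.55. TIA1, a translational repressor, fell by 0.20. These are mRNA levels in the same libraries, and their part in the level of PTGS2 or PLA2G4A was not tested.

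For HPGD and PLA2G4C, which had the largest differences in size among the 10, the genes with the most similar pattern over the 6 libraries were listed. Likeness was the root mean square difference of log2(normalized CPM + 0.5), each gene centered on its own mean, against 15073 genes. The added 0.5 shrinks differences at low levels, so near genes can differ in log2 fold change. For HPGD the nearest were SAMD11 (0.121), OAS2 (0.125) and BMP4 (0.127), beside a median of 0.915 over all genes compared. Their log2 fold changes were -1.955, -2.008 and -1.757, beside -2.199 for HPGD. SAMD11, the nearest, had 22.5, 24.8 and 23.9 normalized CPM untreated and 7.19, 4.86 and 6.27 with Y-320. OAS2, an interferon-induced oligoadenylate synthetase, had 4.05, 5.04 and 4.002 normalized CPM untreated and 1.15, 0.824 and 1.28 with Y-320. For PLA2G4C the nearest were SPAG4 (0.0587), IL23A (0.0621) and SLC28A1 (0.0747), beside a median of 0.609. Their log2 fold changes were 1.207, 1.751 and 1.237, beside 1.538 for PLA2G4C. SPAG4, the nearest, had 8.83, 9.35 and 8.06 normalized CPM untreated and 18.8, 20.2 and 21.6 with Y-320. IL23A, the p19 subunit of interleukin 23, had 0.589, 0.767 and 0.544 normalized CPM untreated and 2.06, 2.24 and 2.12 with Y-320. Its untreated levels are low and rest on few counts. With 6 libraries in 2 groups, the measure is a description and says nothing of shared control.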

How the data were processed

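RNA-seq libraries were made on an Illumina NeoPrep system from total RNA of HDQ-P1 cells and sequenced on a NextSeq 500. The authors deposited estimated counts per gene without normalization, and the submitters' processing notes name kallisto 0.46.1 and GRCh38 (hg38). The Ensembl release and strandedness are not given in the sources used here. Reads shared by several transcripts are divided by estimate, so genes with copies are uncertain.

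The estimated counts were rounded, and 35390 of 40295 identifiers were matched to names. Genes were filtered by filterByExpr (minimum 10 counts, 15 in total), scaled by TMM and fitted without a block by edgeR 4.0.16 (quasi-likelihood, two-sided, Benjamini-Hochberg over all genes, threshold 0.05) in R 4.3.3. Totals of 21045401 to 22740535 per library make 3 counts 0.132 to 0.143 CPM. DESeq2 1.42.0, limma-voom 3.58.1, other filters and scalings, a replicate block, unrounded counts, stricter thresholds and leaving out each library were alternatives, and the fit was tested on simulated data. Other steps used Python 3.11.15, numpy 2.4.6, pandas 2.3.3 and matplotlib 3.10.9. Positions, transcript lengths and 3′ UTRs came from GENCODE 44, and promoters from RefSeq. The 10 genes and all lists, written from general knowledge, were chosen with earlier results of these data known. From each list the text names up to 4 genes past the threshold with the largest changes and a mean of at least 1 normalized CPM, any with a log2 fold change of at least 1, and exceptions marked as such. Groups follow the sample titles, and no sample was left out.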

Additional observations from a re-analysis of the deposited data

How the results depend on the processing

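The counts of genes depended on a minimum change. With a log2 fold change of at least 1 required as well, edgeR gave 403 genes higher and 430 lower, of the 10 genes 1 higher (PLA2G4C, since PTGS2 lies just under 1) and 1 lower (HPGD), and of the other listed genes 2 higher and 0 lower (0 also at an unadjusted p under 0.05, with DESeq2 and with limma-voom). No pairing of the samples by replicate number was visible. The correlations of deviations between same-numbered libraries were -0.00236, 0.0155 and 0.00222, beside -0.0439 to 0.0404 for the other pairs. With 3 libraries per group, this cannot show that the samples were not paired. The replicate block gave 4285 genes higher and 4159 lower, 3 and 4 of the 10 genes, and 14 and 39 other listed genes. With each library left out, 3917 to 4047 genes were higher and 3748 to 3925 lower, 2 to 3 of the 10 genes were higher and 3 to 4 lower, and 13 to 15 of the other listed genes were higher and 34 to 37 lower. The directions of PTGES2 and ALOX5, both near 0, turned. PTGES2 was at 0.00 with library totals and without untreated replicate 2, at 0.02 without untreated replicate 1 and at 0.01 without Y-320 replicate 3, and ALOX5 at 0.02 without untreated replicate 3. With each library left out, PTGES2 ranged from -0.05 to 0.02 and ALOX5 from -0.11 to 0.02. The calls of PLA2G4B, PTGS1 and PLA2G6 changed as given above, and the cause was not tested. PLA2G4A, PLA2G4C, PTGS2, PTGES and HPGD kept direction and side of the threshold under all 15 alternatives to their fit. Depth limits genes whose levels rest on few counts, such as PLA2G4C untreated, HPGD with Y-320 and ALOXE3.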
